A study of Mus musculus with 9 samples.

Results

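Heat shock and endoplasmic reticulum (ER) chaperone genes encode the proteins that fold other proteins, hold misfolded ones and mark them for disposal. The 39 genes described here were chosen by symbol, out of 18193 genes with a probe set on the array, and each is represented by its brightest annotated probe set. They fall into 6 role groups, which are cytosolic heat shock genes (12), mitochondrial chaperones (3), ER chaperones and foldases (13), ER-associated degradation and translocation (4), ER stress sensors (3) and ER stress transcription factors and effectors (4). A probe set of its own was found for 38 of the 39 genes, and Hsp90ab1 was not analysed here. Hspa1a lay under the array median on all 8 arrays used for the tests, so 37 genes were tested.

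In the cytosol, heat shock factors bind heat shock elements in promoters and raise Hsp70, Hsp90, their co-chaperones and the small heat shock proteins when proteins unfold. In the ER, the sensors IRE1, PERK and ATF6 respond to unfolded proteins, and the factors they release (XBP1, ATF4 and cleaved ATF6) raise ER chaperones, foldases and degradation factors. Hepatocytes secrete most plasma proteins and carry a large ER, so these chaperones are abundant transcripts of the liver.

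Samples labelled as liver came from female MRL +/+ mice, a strain used as a model of autoimmune disease, that were 11 weeks old at death. In the DCAC group, 3 mice received dichloroacetyl chloride at 0.2 mmol/kg, injected into the peritoneum in 100 µl of corn oil with 2 injections per week over 6 weeks. The DCAA group, also 3 mice, received dichloroacetic anhydride at the same dose on the same schedule. The 3 control mice received the oil alone according to the series' design text, while their own labels call them untreated, and all samples were taken 24 h after the last injection. Both compounds carry the dichloroacetyl group, attached to chloride in DCAC and to dichloroacetate in DCAA. One Affymetrix array per mouse gave a signal per probe set, on a linear scale, and differences below are on the log2 scale. Precision is limited by the small number of arrays, since no read depth applies.

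The array of control 2 stood apart and was left out of the tests, which leaves 2 controls. Its Spearman correlation with the rest had a median of 0.806, whereas pairs among the remaining 8 arrays reached 0.859 to 0.929. Signals of 7 hepatocyte markers summed to 243692 to 328440 in DCAC livers, 310258 to 345598 in DCAA livers, 251507 to 256216 in controls 1 and 3 and 14993 on control 2. Signals of 8 kidney tubule markers summed to 127483 on control 2 and to at most 1800.3 on the other arrays, where Umod, Slc12a1 and Cdh16 were below the array median throughout. Both sums on control 2 go against its label as liver. The 3′/5′ ratio of the pyruvate carboxylase probe sets, an RNA and labelling control, also divided the arrays. It was high (6.43 to 12.8) on DCAC 3 and all 3 DCAA arrays and low (2.85 to 3.99) on DCAC 1, DCAC 2 and the controls, so the high class held every DCAA array and none of the controls. Marker sums of other cells differed too, here given for the 8 arrays tested. Acute phase genes, which hepatocytes raise in inflammation, summed to 237157 to 314652 in DCAC livers, 190572 to 323292 in DCAA livers and 104491 to 105112 in controls 1 and 3, and 4 of 8 passed the test with DCAC and 5 of 8 with DCAA. T and NK cell markers summed to 1070.6 to 1095.5 in DCAC livers, 1065 to 1265.3 in DCAA livers and 1744 to 2764 in controls 1 and 3. Kupffer cell and macrophage markers summed to 9336.5 to 14774.5 in DCAC livers and 12469.6 to 13420.4 in DCAA livers, against 9066 and 31616 in the 2 controls, which thus enclosed all 6 treated livers. Neutrophil markers summed to 2651 to 2892 in DCAC livers, 1822 to 4283 in DCAA livers and 1294 to 1721 in controls 1 and 3, with Camp below the median everywhere. Plasma and B cell markers, read because plasma cells are rich in ER, summed to 1603 to 2351.5 in DCAC livers, 2711 to 3860.4 in DCAA livers and 2231 to 2422 in controls 1 and 3. The part of these cells and of the 3′/5′ ratio in the results was not tested, and in whole liver fewer cells of a type and less RNA per cell cannot be told apart.

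Promoter sequences show which of these genes carry the elements of each stress pathway. RefSeq windows (build GRCm38.p6, 250 bases before to 50 after each start) were found for 31 of the 39 genes. The ER stress element, CCAAT and CCACG 9 bases apart, was present on one strand or the other in 6 of 11 ER chaperone and foldase genes (54.55%) and in 0.14% of all 27025 genes with a window. It was present in none of the 20 genes outside that group, where the letters sought did not occur in these windows. The CCAAT box alone, which is contained in the ER stress element, was in 11 of 11 ER chaperone and foldase genes and in 41.06% of all genes, and the CCACG part alone in 10 of the 11 and 35.48% of all genes. The 6 stretches that hold the full element are shown in their gene's direction, with the element in capitals and with Creld2 in its whole window because it had the lowest difference of the 37 genes in both compounds. Where the capitals begin with CGTGG the element lies on the opposite strand, and Hsp90b1 has 2 copies.

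Creld2, chr15:88819396-88819695, plus strand: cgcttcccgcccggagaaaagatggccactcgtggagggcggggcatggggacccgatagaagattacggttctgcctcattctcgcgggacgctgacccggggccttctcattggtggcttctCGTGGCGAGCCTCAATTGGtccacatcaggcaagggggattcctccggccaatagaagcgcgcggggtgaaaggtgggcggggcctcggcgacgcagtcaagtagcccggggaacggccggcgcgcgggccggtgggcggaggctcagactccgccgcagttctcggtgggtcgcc
Hspa5, chr2:34772010-34772058, plus strand: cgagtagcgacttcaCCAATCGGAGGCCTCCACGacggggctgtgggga
Calr, chr8:84847060-84847108, minus strand: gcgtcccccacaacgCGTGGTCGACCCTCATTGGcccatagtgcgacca
Canx, chr11:50325785-50325833, minus strand: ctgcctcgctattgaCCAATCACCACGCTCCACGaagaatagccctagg
Pdia6, chr12:17266476-17266524, plus strand: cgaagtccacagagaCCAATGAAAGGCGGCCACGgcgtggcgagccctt
Hsp90b1, chr10:86705518-86705671, minus strand: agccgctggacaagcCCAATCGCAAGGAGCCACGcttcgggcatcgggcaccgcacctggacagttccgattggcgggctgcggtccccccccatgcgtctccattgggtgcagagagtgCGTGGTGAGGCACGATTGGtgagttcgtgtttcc

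The heat shock element was sought as GAANNTTC or TTCNNGAA, with N any base, on both strands. It was found in 5 of 8 cytosolic heat shock genes with a window (62.5%) and in 16.97% of all genes, and in none of the 11 ER chaperone and foldase genes. Its longer form of 3 units, which contains the shorter one, was in Hsph1, Hspd1 and Hspe1 and in 0.66% of all genes. Hspd1 and Hspe1 lie head to head, and their windows share 285 bases on opposite strands, so both hold the same element. The window of Hspa1b is shown because this gene had the largest difference of all, with the heat shock element of 2 units in capitals. Its window and that of Hspa1a are identical at 296 of 300 bases (98.67%), and probe sets of such a gene pair may read both transcripts. The ATF4 composite element, TGATGNAAN on either strand, was in Trib3 and Herpud1 and in 4.5% of all genes, and the window of Trib3 is shown with that element in capitals on the opposite strand. The unfolded protein element TGACGTGG was in 0 of the 31 genes and in 0.71% of all genes.

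Hspa1b, chr17:34959189-34959488, minus strand: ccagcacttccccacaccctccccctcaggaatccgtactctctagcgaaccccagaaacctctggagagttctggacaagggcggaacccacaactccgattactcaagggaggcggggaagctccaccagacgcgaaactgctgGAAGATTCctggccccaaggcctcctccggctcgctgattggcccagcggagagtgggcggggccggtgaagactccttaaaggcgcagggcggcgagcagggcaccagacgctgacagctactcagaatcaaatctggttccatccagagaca
Hspd1, chr1:55088044-55088091, minus strand: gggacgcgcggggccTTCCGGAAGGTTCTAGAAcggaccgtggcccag
Trib3, chr2:152344011-152344310, minus strand: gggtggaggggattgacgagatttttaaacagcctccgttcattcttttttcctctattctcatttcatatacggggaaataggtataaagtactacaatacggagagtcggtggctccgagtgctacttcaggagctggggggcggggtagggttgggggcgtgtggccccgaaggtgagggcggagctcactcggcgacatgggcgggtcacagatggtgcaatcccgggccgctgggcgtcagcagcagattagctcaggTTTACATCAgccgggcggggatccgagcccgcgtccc

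None of the 37 genes passed the test in any comparison, at a limma adjusted p under 0.05 over 24531 probe sets. Over all probe sets the share called was 0.0326% for DCAC against control, 0.0815% for DCAA against control, 0.00408% for DCAC against DCAA and 0.0734% for all treated mice against control. The difference was above 0 for 15 of the 37 genes with DCAC and for 16 with DCAA. Their median log2 difference was -0.11 for DCAC against control (all probe sets -0.03), -0.06 for DCAA against control (all probe sets -0.01) and -0.03 for DCAC against DCAA (all probe sets -0.01). Differences of under 1.5-fold were estimated for 34 of the 37 genes with DCAC and for 28 with DCAA. The 95% interval lay within 2-fold in both directions for 30 genes with DCAC and for 28 with DCAA, and its median reach was 0.46 on the log2 scale on either side. Both compounds were set against the same 2 controls, so the 2 sets of differences are not independent.

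At an unadjusted p under 0.05, 0 genes were higher and 3 were lower with DCAC (8.11% of the 37), where 2.47% of all probe sets were higher and 2.55% lower. The 3 were Creld2, Manf and Hspb1. With DCAA, 4 genes were higher (10.81%) and 5 lower (13.51%), where 6.3% of all probe sets were higher and 6.28% lower. The 4 higher ones were Hspa1b, Trib3, Ddit3 and Calr, and the 5 lower ones were Creld2, Hspa4, Manf, Hspa9 and Hspa5. All 3 DCAC arrays lay above both controls for 5 genes and below both for 5 genes (13.51% each), where the shares of all probe sets were 11.2% above and 12.5% below. All 3 DCAA arrays lay above both controls for 4 genes (10.81%) and below both for 8 genes (21.62%), where the shares were 16.1% above and 15.6% below.

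**Figure D1:**
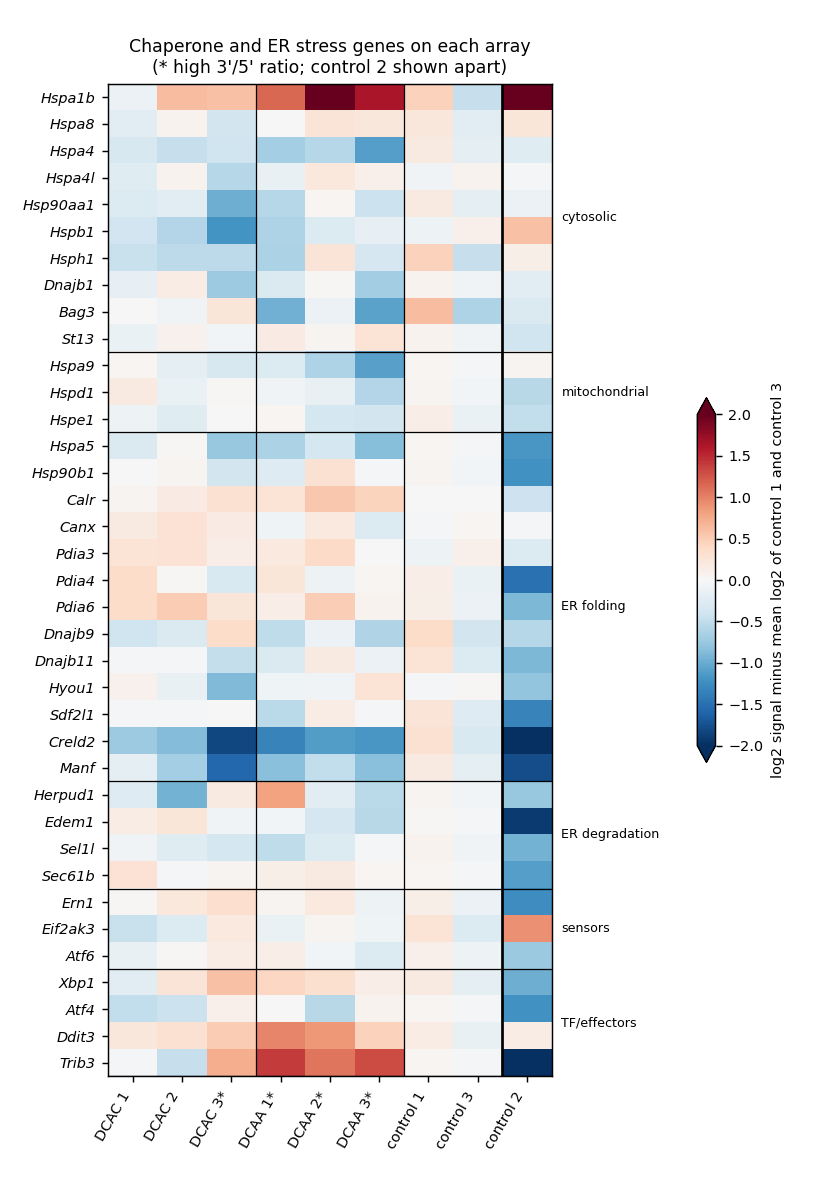
Heat map of the 37 tested genes (rows, by role) on the 9 arrays (columns), coloured by log2 signal minus the mean log2 of controls 1 and 3; an asterisk marks arrays with a high 3′/5′ ratio and control 2 stands apart on the right. Hspa1b and Trib3 are red on all 3 DCAA arrays, Creld2 is blue on all 6 treated arrays, and control 2 is blue for most ER genes.

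Among cytosolic heat shock genes, Hspa1b, the stress-inducible Hsp70, had the largest difference of the 37. Its signal was 783, 1297 and 1264 on DCAC arrays 1 to 3 and 1871, 4487 and 2628 on the DCAA arrays, against 1165 and 614 on controls 1 and 3. All 3 DCAA livers thus lay above every DCAC liver and both controls, and the DCAC livers overlapped the controls. The log2 difference was 0.36 with DCAC (95% interval -0.42 to 1.14, limma adjusted p = 0.981) and 1.73 with DCAA (0.95 to 2.51, adjusted p = 0.124). Both of the other probe sets for Hspa1b pointed the same way with DCAA, at 1.52 and 1.42. With control 2 included, which read 4003, the DCAA difference was 0.98 and the DCAC difference was -0.39, so that its sign turned. The DCAA difference passed in 2 of 23 alternatives, at 2.02 without DCAA 1 (adjusted p = 0.0428) and at 1.95 with array weights (0.0351), and the adjusted p ran up to 0.810 in the others. The 3′/5′ class as a block left 1.40, the largest of the 37 under that model. Hspa1a, the neighbouring inducible Hsp70 gene, read 12.2 to 68.3 in DCAC livers, 55 to 148 in DCAA livers and 59.2 and 10.4 in controls 1 and 3, all under the array median.

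The Hsp70 exchange factors and co-chaperones had lower signals or overlapping groups. Hspa4, an exchange factor of the Hsp110 family, read 1589, 1436 and 1499 on DCAC arrays and 1244, 1331.5 and 926 on DCAA arrays, against 2255 and 1742 in controls 1 and 3. All 6 treated livers were below both controls, by -0.40 with DCAC (adjusted p = 0.967) and -0.78 with DCAA (adjusted p = 0.180). Its dimmer probe sets differed from it, at 0.50 and 0.21 with DCAC and -0.11 and 0.43 with DCAA, and the mean over its probe sets was -0.06 with DCAA. Hsph1, of the same family, read 1256.5, 1197 and 1195 on DCAC arrays and 1101, 2051 and 1349 on DCAA arrays, against 2345 and 1249 in the controls. Its groups overlapped, at -0.49 with DCAC and -0.24 with DCAA. These values rested on the choice of control, at -0.04 and 0.22 without control 1 and at -0.95 and -0.69 without control 3.

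Bag3, an Hsp70 co-chaperone that directs clients to autophagy, read 628, 590 and 740.1 on DCAC arrays and 319, 572 and 298 on DCAA arrays, against 955 and 407 in controls 1 and 3. The controls lay 2.35-fold apart, the widest control pair of the 37 genes, and enclosed the DCAC values. Its difference was 0.06 with DCAC and -0.72 with DCAA (adjusted p = 0.438), and its DCAA value ran from -1.34 without control 3 to -0.10 without control 1. The small heat shock protein gene Hspb1 read 712, 624 and 408 on DCAC arrays and 604, 769 and 828 on DCAA arrays, against 865.5 and 1003.5 in the controls. All 6 treated livers were below both controls, by -0.72 with DCAC (-1.27 to -0.16, adjusted p = 0.915) and -0.36 with DCAA (-0.91 to 0.20, adjusted p = 0.596). Hspb1 stood, with the 3′/5′ class as a block, at -0.48 with DCAC and 0.35 with DCAA. Its dimmer probe set, over the array median on 2 of the 8 arrays and so not tested, read 36.5, 42.6 and 15.7 on DCAC arrays and 48.7, 135.0 and 29.4 on DCAA arrays, against 254 and 453 in the controls. The mean over both probe sets was -1.72 with DCAC and -1.22 with DCAA. On the dimmer one, all 3 DCAC arrays, DCAA 1 and DCAA 3 read under the 25th percentile of their array. Values under it were raised to it before log2, so the size of this mean depends on that floor.

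The other 5 cytosolic genes tested (Hspa8, Hspa4l, Hsp90aa1, Dnajb1 and St13) had DCAC differences from -0.49 to -0.03 and DCAA differences from -0.32 to 0.16. Hsp90aa1, the inducible Hsp90, stood at -0.49 with DCAC and -0.32 with DCAA, and its DCAA value turned to 0.42 with the 3′/5′ class as a block. Hspa8, the constitutive Hsc70, stood at -0.17 and 0.16. With DCAA the 4 tested probe sets of Hspa8 ran from -0.37 to 0.83, and those of Hsp90aa1 from -0.32 to 0.50. Over the 10 cytosolic genes the median was -0.25 with DCAC and -0.28 with DCAA, and the DCAA median turned to 0.38 with the 3′/5′ class as a block.

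The 3 mitochondrial chaperones all help imported proteins fold. Hspa9, the mitochondrial Hsp70, read 5565.5, 4767.5 and 4336 on DCAC arrays and 4459.7, 3505 and 2540.2 on DCAA arrays, against 5539 and 5268 in controls 1 and 3. All DCAA livers were below both controls, at -0.66 (-1.12 to -0.21, adjusted p = 0.244), and with DCAC (-0.15) 1 liver lay above both controls and the other two below. The difference of Hspa9 with DCAA was -0.41 with the 3′/5′ class as a block. Its 3 dimmer probe sets that were tested were also negative with DCAA, from -2.63 to -0.17, and a further one lay under the array median on all 8 arrays and was not tested. Hspd1, the Hsp60 chaperonin, read 16776, 13432 and 15072 on DCAC arrays and 14038, 13294 and 9792.5 on DCAA arrays, against 15280 and 14257 in the controls. Hspe1, its Hsp10 partner, read 7193, 6488 and 7769 on DCAC arrays and 7900.1, 6044 and 5958 on DCAA arrays, against 8415 and 7053 in the controls. Every interval of both genes contained 0, at 0.03 and -0.11 with DCAC and -0.27 and -0.23 with DCAA.

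**Figure D2:**
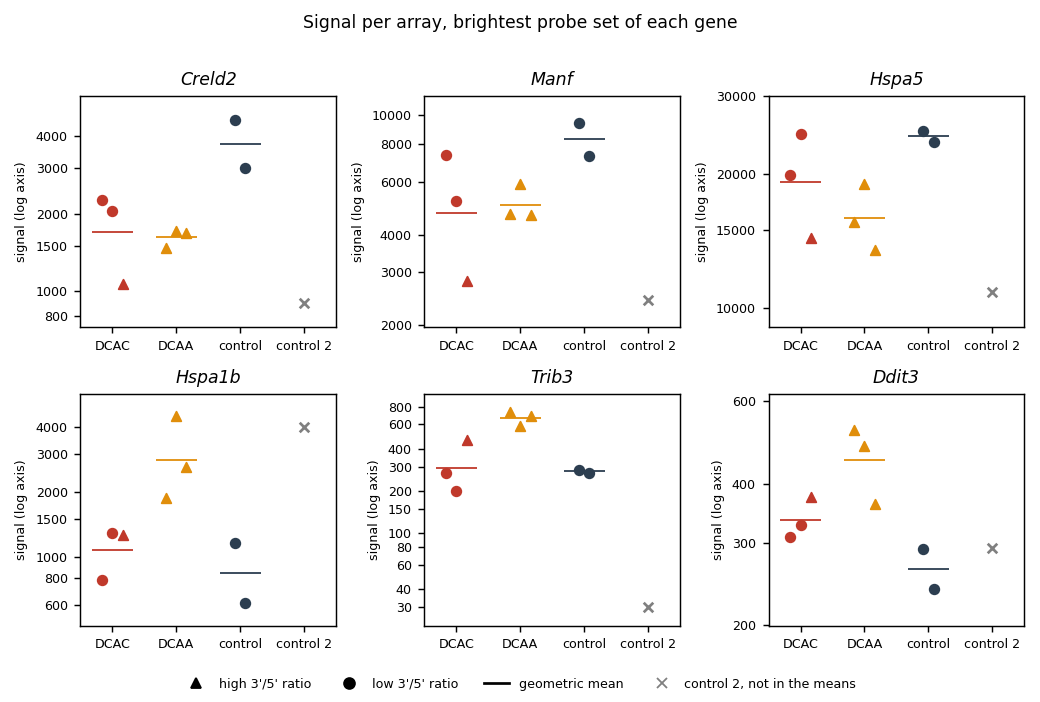
Signal per array (log axis) of Creld2, Manf, Hspa5, Hspa1b, Trib3 and Ddit3 in DCAC, DCAA and control livers, with the geometric mean of each group as a line, control 2 as a cross, triangles for a high 3′/5′ ratio and circles for a low one. Creld2 lies below both controls in all 6 treated livers, and the DCAC 3 triangle sits within or below the range of the DCAA triangles for Creld2, Manf and Hspa5.

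Among ER chaperones and foldases, Creld2, an ER stress-inducible protein of the ER lumen, had the lowest difference in both compounds. Its signal (this gene has a single probe set) was 2258, 2044.5 and 1063 on DCAC arrays and 1474, 1715 and 1675 on DCAA arrays, against 4619 and 3024 in controls 1 and 3. All 6 treated livers were below both controls. The difference was -1.14 with DCAC (-1.76 to -0.51, limma adjusted p = 0.560) and -1.21 with DCAA (-1.83 to -0.59, adjusted p = 0.163). The DCAA difference passed in 1 of 23 alternatives, at -1.21 without DCAC 3 (adjusted p = 0.0435), and the adjusted p ran up to 0.950 in the others. Control 2 read 899, below every other array, and with it the differences were -0.45 and -0.52. These became, with the 3′/5′ class as a block, -0.80 with DCAC and -0.19 with DCAA.

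Manf, a secreted ER stress-inducible factor, read 7347, 5180 and 2792 on DCAC arrays and 4669, 5886 and 4633.5 on DCAA arrays, against 9443 and 7295 in controls 1 and 3. All DCAA livers were below both controls, and DCAC 1 lay just above control 3. Its difference was -0.81 with DCAC (-1.48 to -0.14, adjusted p = 0.933) and -0.72 with DCAA (-1.39 to -0.06, adjusted p = 0.364). With the 3′/5′ class as a block Manf stood at -0.43 with DCAC and, with its sign turned, at 0.42 with DCAA.

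Hspa5, the ER Hsp70 BiP that binds unfolded chains and holds the ER stress sensors inactive, read 19969.6, 24684 and 14379 on DCAC arrays and 15644, 19057 and 13534 on DCAA arrays, against 25058 and 23622 in controls 1 and 3. DCAA livers were all below both controls, at -0.61 (-1.07 to -0.15, adjusted p = 0.274), and the difference was 0.01 with the 3′/5′ class as a block. The DCAC difference was -0.34 (-0.80 to 0.12, adjusted p = 0.977), and DCAC 2 lay between the controls. The dimmer probe sets of Hspa5 gave -0.68 and -0.00 with DCAC and -1.18 and -0.08 with DCAA.

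Calr, the lectin chaperone calreticulin, was the 1 ER chaperone above control at an unadjusted p under 0.05, with DCAA. It read 21869.9, 23449 and 25918 on DCAC arrays and 25331, 30523 and 28563 on DCAA arrays, against 20875 and 21194 in controls 1 and 3. All 6 treated livers were above both controls, by 0.17 with DCAC (adjusted p = 0.981) and 0.42 with DCAA (0.11 to 0.72, adjusted p = 0.269). Its other probe sets gave 0.22 and 0.39 with DCAA. Quantile normalization brought Calr to -0.03 with DCAC, with its sign turned, and to 0.16 with DCAA, and the 3′/5′ class as a block brought it to 0.11 and 0.22. Dnajb9, the BiP co-chaperone ERdj4, read 3471, 3718 and 5904 on DCAC arrays and 3190.5, 4215 and 3009.5 on DCAA arrays, against 5878 and 3531 in the controls. Its groups overlapped, at -0.10 with DCAC and -0.41 with DCAA. Without control 1 these were 0.26 and -0.04, without control 3 the DCAC value was -0.47, and with the 3′/5′ class as a block they were -0.34 and -1.13.

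The remaining 8 ER chaperones and foldases (Hsp90b1, Canx, Pdia3, Pdia4, Pdia6, Dnajb11, Hyou1 and Sdf2l1) had DCAC differences from -0.31 (Hyou1) to 0.37 (Pdia6) and DCAA differences from -0.14 (Sdf2l1) to 0.24 (Pdia6). Pdia6, Pdia3 and Canx, which are disulphide isomerases and a lectin chaperone, lay above both controls on all 3 DCAC arrays, at 0.37, 0.24 and 0.21. The dimmer probe set gave 0.20 for Pdia6 and -0.03 for Pdia3. Of 3 Canx probe sets 2 were above 0 and the lowest gave -0.04, and quantile normalization brought Canx to 0.07. Hsp90b1, the ER Hsp90 homologue, stood at -0.11 with DCAC and 0.00 with DCAA. Pdia4, a disulphide isomerase, stood at 0.03 with DCAC and 0.06 with DCAA. Dnajb11, the BiP co-chaperone ERdj3, stood at -0.18 and -0.07. The DCAA values of Hyou1, Pdia4, Dnajb11 and Hsp90b1 became 0.89, 0.57, 0.38 and 0.41 with the 3′/5′ class as a block. Without the block, 2 of the 3 probe sets of Hyou1 were above 0 with DCAA. The dimmest gave -1.42, and the mean over all 3 was -0.45. For Hsp90b1, the dimmer probe set gave -0.40 with DCAC and -0.34 with DCAA.

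The 6 genes that carry the ER stress element lay on both sides of 0 with DCAA when no block was used. Creld2 and Hspa5 stood at -1.21 and -0.61, Canx and Hsp90b1 at -0.06 and 0.00, and Pdia6 and Calr at 0.24 and 0.42. When the 3′/5′ class was a block, Creld2 stood at -0.19, Hspa5 and Canx at 0.01 each, Calr at 0.22, Hsp90b1 at 0.41 and Pdia6 at 0.43, so that 5 of the 6 were above 0. In the DCAC livers the same 6 genes ran from -1.14 for Creld2 to 0.37 for Pdia6.

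The DCAC group held both classes of the 3′/5′ ratio. DCAC 3, its array with the high ratio, was lower than the mean of DCAC 1 and DCAC 2 for 10 of 13 ER chaperones and foldases, with a median log2 difference of -0.40. By the brightest probe sets, it was higher for all 4 ER stress transcription factors and effectors, with a median of 0.56. The same held for all 3 sensors, with a median of 0.22. Dimmer probe sets gave -0.93 for Trib3, -1.03 for Atf4, -1.20 for Atf6 and -1.15 for Ern1. The brightest ones of these genes gave 0.99, 0.55, 0.21 and 0.22. All dimmer probe sets of Xbp1, Ddit3 and Eif2ak3 were higher on DCAC 3, as was 1 each of Atf6 and Ern1, at 0.12 and 0.45. The block takes the size of the ratio's part from the DCAC group alone, and the DCAC difference then rests on DCAC 1 and DCAC 2. With it, the sign turned for 4 of 13 ER chaperones and foldases with DCAA, and 10 of the 13 were then above 0. Their DCAA median was -0.06 without the block and 0.34 with it. In all, the block turned the sign of 10 of the 37 genes with DCAA and of 4 with DCAC. No share over all probe sets was computed for these counts or for those of DCAC 3, which is 1 mouse. They are therefore not read as traits of these role groups.

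**Figure D3:**
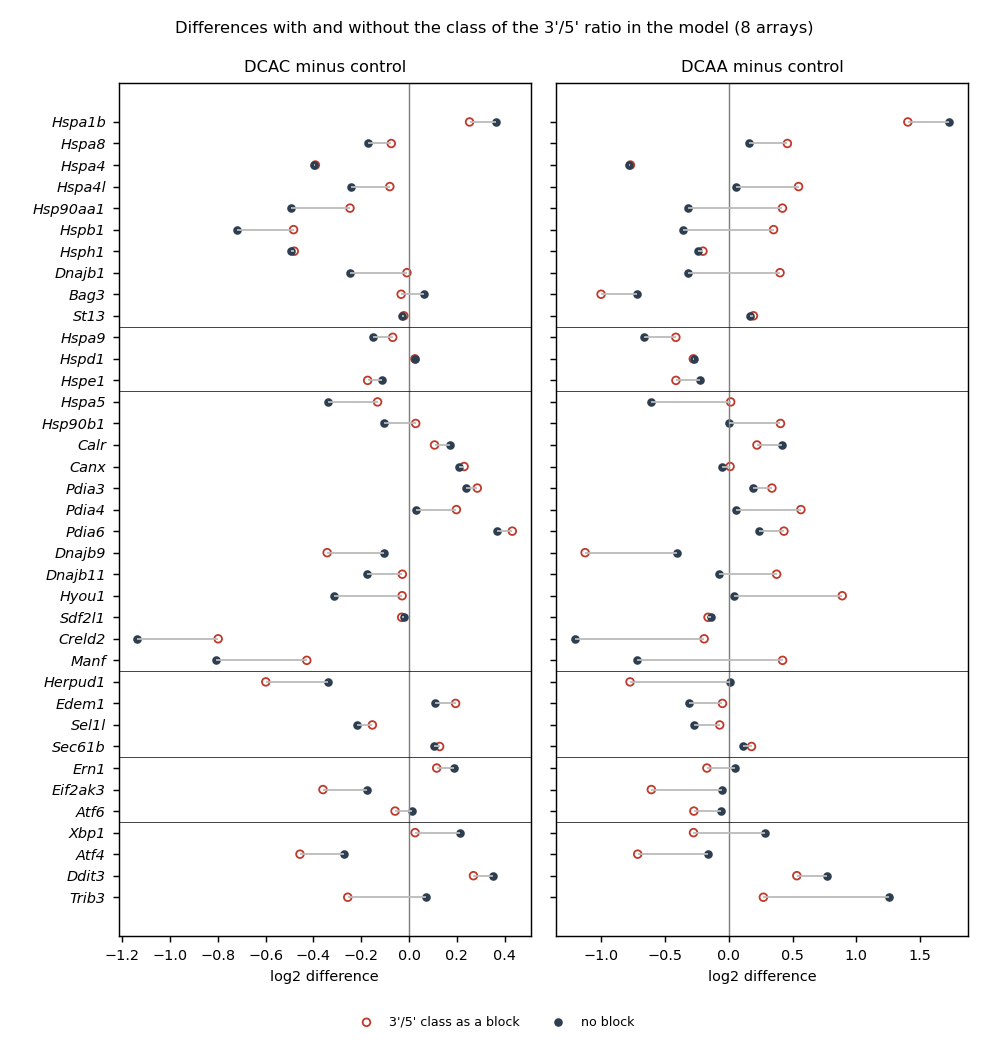
Log2 difference of the 37 genes for DCAC minus control (left) and DCAA minus control (right), without (filled) and with (open) the class of the 3′/5′ ratio as a block. Creld2, Manf and Trib3 shift most towards or past 0 with DCAA, and Hspa1b stays at 1.40.

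None of the 4 genes of ER-associated degradation and translocation had an unadjusted p under 0.05 against control. Herpud1, an ER stress-inducible membrane protein of the degradation complex, read 4592, 2851 and 6242 on DCAC arrays and 9535, 4730.1 and 3758 on DCAA arrays, against 5683 and 5289 in controls 1 and 3. Its DCAA values thus lay on both sides of the controls and spanned 2.54-fold. Herpud1 stood at -0.34 with DCAC and 0.01 with DCAA, and at -0.60 and -0.77 with the 3′/5′ class as a block. Edem1, which hands misfolded glycoproteins to degradation, read 4529.5, 4807 and 3889 on DCAC arrays and 3938, 3236 and 2780 on DCAA arrays, against 4130.1 and 4025 in the controls. All DCAA values of Edem1 were below both controls, at -0.31 (adjusted p = 0.479), and the difference was -0.05 with the 3′/5′ class as a block. Sel1l, the adaptor of the Hrd1 ubiquitin ligase, read 3719, 3310.4 and 3059 on DCAC arrays and 2737, 3235 and 3842 on DCAA arrays, against 4081.5 and 3733 in the controls. Sec61b, a subunit of the translocon, read 5654, 4524 and 4828 on DCAC arrays and 5027, 5230.3 and 4754 on DCAA arrays, against 4765 and 4497.5 in the controls. DCAC values of Sel1l were all below both controls, by -0.22, and Sec61b stood at 0.11 with each compound. One further probe set annotated to Sec61b is shared with Gm10320 and was not used.

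The sensors overlapped the controls in both compounds. Ern1, which encodes IRE1, read 2297, 2610.3 and 2845 on DCAC arrays and 2346, 2577 and 2099 on DCAA arrays, against 2459 and 2078 in controls 1 and 3. Eif2ak3, which encodes PERK, read 547, 614 and 849.9 on DCAC arrays and 681, 769 and 703 on DCAA arrays, against 898.5 and 616 in the controls. Atf6 read 1152, 1298 and 1413 on DCAC arrays and 1403, 1226 and 1051 on DCAA arrays, against 1369 and 1185 in the controls. Differences of the 3 sensors ran from -0.18 to 0.19 with DCAC and from -0.06 to 0.05 with DCAA, and every interval contained 0. Under the 3′/5′ block the DCAA values of Ern1, Eif2ak3 and Atf6 were -0.17, -0.61 and -0.27.

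Ddit3 and Trib3, which act downstream of PERK and ATF4, had the highest differences of the 24 ER genes with DCAA. Hyou1, by its brightest probe set, was the highest of these once the 3′/5′ class was a block, and Pdia6 was the highest with DCAC. Trib3, a pseudokinase that ATF4 and CHOP raise, read 269, 201 and 461 on DCAC arrays and 733, 585 and 687 on DCAA arrays, against 285 and 272 in controls 1 and 3. All 3 DCAA livers were above every DCAC and control liver, and DCAC 3, the array with the high ratio, was the highest of its group. The difference was 0.07 with DCAC (-0.63 to 0.77, adjusted p = 0.992) and 1.26 with DCAA (0.56 to 1.96, limma adjusted p = 0.186). A dimmer probe set gave -0.62 with DCAC and 1.09 with DCAA. On it, controls 1 and 3 lay far apart, at -1.05 and 1.05 on the log2 scale around their mean. DCAA 2, at 0.84, was thus below control 3 on that probe set, and DCAC 3, at -1.24, was the lowest of its group. With the 3′/5′ class as a block Trib3 stood at -0.26 with DCAC and 0.27 with DCAA, and with control 2, which read 29.7, at 0.81 and 1.997.

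Ddit3, the transcription factor CHOP, read 308, 327 and 375 on DCAC arrays and 520.1, 482 and 363 on DCAA arrays, against 290.4 and 239 in controls 1 and 3. All 6 treated livers were above both controls, by 0.35 with DCAC (-0.23 to 0.93, adjusted p = 0.978) and 0.77 with DCAA (0.20 to 1.35, adjusted p = 0.272). Its DCAA value was 0.53 with the 3′/5′ class as a block. A dimmer probe set of Ddit3 did not pass the filter and was not tested. On it DCAC 1 and DCAC 2 lay below both controls, DCAA 3 lay between them, and DCAC 3, DCAA 1 and DCAA 2 lay above both. The mean over both probe sets was 0.14 with DCAC. Atf4, the factor upstream of both, read 3287, 3429 and 4922 on DCAC arrays and 4596.5, 3136 and 4851 on DCAA arrays, against 4727 and 4490.4 in the controls. Its groups overlapped, at -0.27 and -0.16, and the DCAA value was -0.71 with the 3′/5′ class as a block. A dimmer tested probe set of Atf4 gave -0.55 with DCAC and -1.30 with DCAA, and on it every DCAA array lay below both controls. Xbp1, the factor that IRE1 activates by splicing, read 10229, 14037 and 17701 on DCAC arrays and 15625, 14632 and 12968.5 on DCAA arrays, against 13403 and 10346 in the controls. The signal is of the whole transcript, with differences of 0.21 and 0.29, and does not separate spliced from unspliced Xbp1. The other 3 probe sets of Xbp1 were below 0 with both compounds, down to -0.09 with DCAC and -0.41 with DCAA. The block for the 3′/5′ class brought Xbp1 to 0.03 with DCAC and turned its DCAA value to -0.28.

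**Figure D4:**
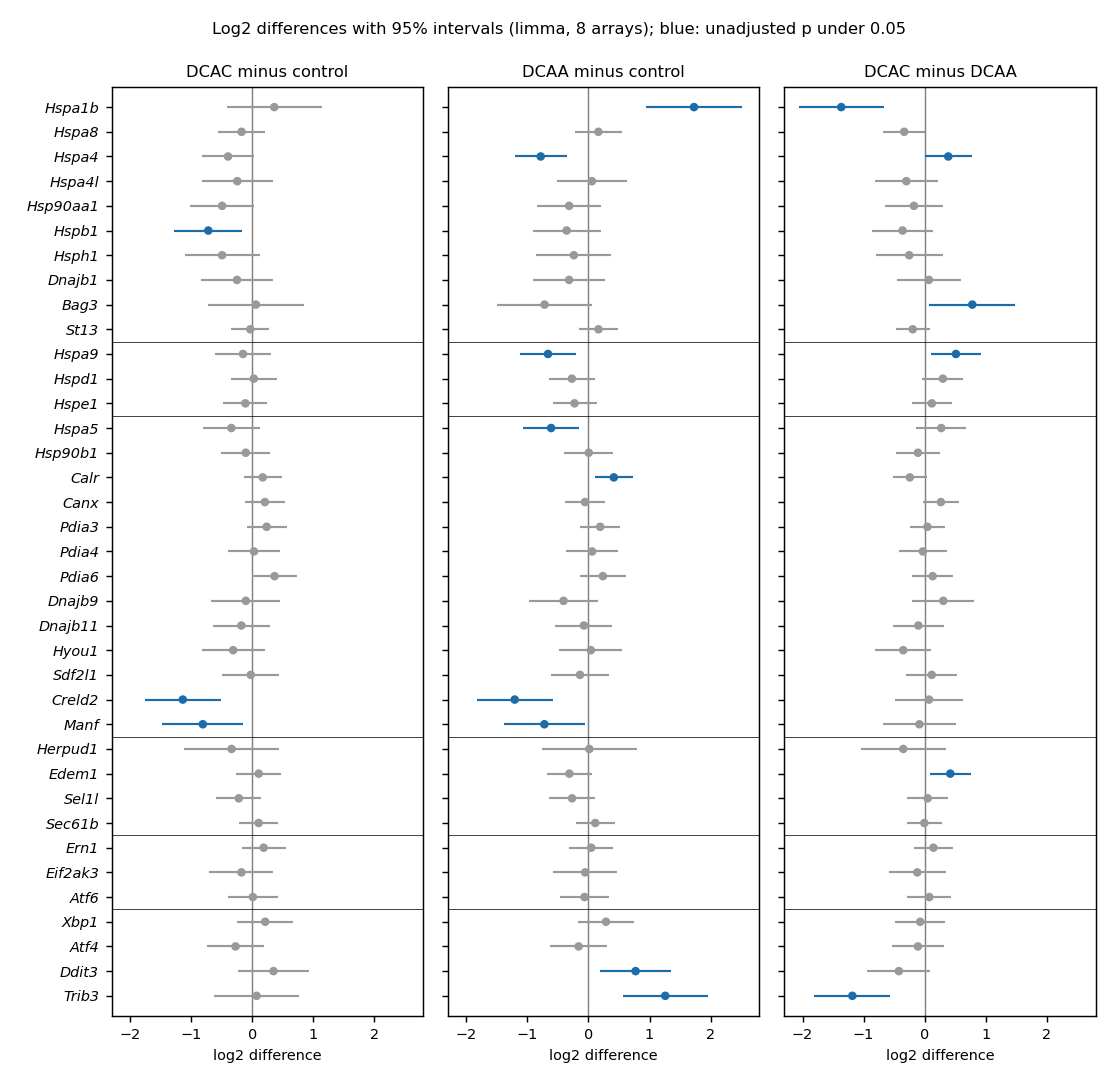
Log2 difference (points) with its 95% interval (lines) for the 37 genes, by role, for DCAC minus control, DCAA minus control and DCAC minus DCAA, with blue for an unadjusted p under 0.05. Most intervals cross 0, and Hspa1b and Trib3 lie to the right for DCAA minus control and to the left for DCAC minus DCAA.

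Chloride and anhydride were compared directly at the same dose and time, as 1 pair with the p adjusted over all probe sets, and limma called 0 of the 37 genes. At an unadjusted p under 0.05, 4 genes were higher with DCAC than with DCAA (10.81%) and 2 were lower (5.41%), where 4.7% of all probe sets were higher and 4.58% lower. Both groups were fully apart for 2 genes in each direction (5.41% each), where 6.32% of all probe sets were fully higher and 7.63% fully lower. The 2 lower ones were Hspa1b, at -1.37 (-2.07 to -0.67, adjusted p = 0.403), and Trib3, at -1.19 (-1.81 to -0.56, adjusted p = 0.403). With the 3′/5′ class as a block these were -1.15 and -0.53. The higher ones were Bag3 at 0.78 (0.08 to 1.48), Hspa9 at 0.51 (0.10 to 0.92), Edem1 at 0.42 (0.09 to 0.75) and Hspa4 at 0.39 (0.00 to 0.77), with adjusted p of 0.484 to 0.538. The 3 tested probe sets of Hspa4 ran from -0.22 to 0.61, and the mean over its probe sets was -0.01. For Creld2 and Manf the compounds differed by 0.07 (-0.49 to 0.63) and -0.09 (-0.68 to 0.51), and for Hspa5 by 0.27 (-0.14 to 0.68). The interval lay within 2-fold in both directions for 33 of the 37 genes and contained 0 for 31.

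With all 6 treated mice against controls 1 and 3, 0 of the 37 genes were higher and 5 lower at an unadjusted p under 0.05 (13.51%), where 4.13% of all probe sets were higher and 3.09% lower. The 5 were Creld2 at -1.17 (-1.71 to -0.63, limma adjusted p = 0.199), Manf at -0.77, Hspa4 at -0.59, Hspb1 at -0.54 and Hspa5 at -0.48. With the 3′/5′ class as a block these stood at -0.80, -0.43, -0.39, -0.48 and -0.13 in the same order. Those are the DCAC values under the block, since DCAC 1 and DCAC 2 are the only treated arrays of the low class. They therefore do not describe all 6 treated mice. The DCAA values under the block were -0.19, 0.42, -0.77, 0.35 and 0.01. For Hspa4 the 3 tested probe sets ran from -0.59 to 0.32 without the block, and the mean over its probe sets was -0.06.

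Other genes of the same pathways were read from 7 lists chosen for their function, and 0 of them passed the test in any comparison. Their counts at an unadjusted p under 0.05 stand against 2.47% of all probe sets higher and 2.55% lower with DCAC, and 6.3% higher and 6.28% lower with DCAA. In the list of ER folding and glycoprotein quality control, 1 of 21 genes was higher (4.76%) and 2 lower (9.52%) with DCAC, and 2 were higher and 2 lower with DCAA (9.52% each). Hspa13, a microsomal Hsp70, stood at -0.67 with DCAC and -0.98 with DCAA (adjusted p = 0.919 and 0.175), and the prolyl isomerase Ppib at 0.45 and 0.43. Of 23 genes of ER degradation and translocation 0 were higher with either compound, and 2 were lower with DCAC (8.7%) and 3 with DCAA (13.04%), among them Syvn1, the Hrd1 ubiquitin ligase, at -0.87 and -0.91 (adjusted p = 0.648 and 0.192). Among 15 genes of the integrated stress response, the branch in which PERK acts, 0 were higher and 2 lower (13.33%) with DCAC, and 1 was higher (6.67%, near the share of all probe sets) and 0 lower with DCAA. Ppp1r15a, the phosphatase subunit that ends this response, stood at -0.65 with DCAC against control and at -0.71 with DCAC against DCAA (-1.11 to -0.31, limma adjusted p = 0.433). Ddit4, an inhibitor of mTOR signalling, stood at -0.61 with DCAC, and at -0.65 between the compounds. Within the cytosolic heat shock response list, 0 of 28 genes were higher and 2 lower (7.14%) with DCAC, and 0 were higher and 4 lower (14.29%) with DCAA. That list also holds the microsomal Hspa13, which is counted among its lower genes with both compounds. The transcription factor Hsf2 stood at -0.76 between DCAC and DCAA (limma adjusted p = 0.484). The 8 TRiC chaperonin subunits had medians of -0.03 with DCAC and -0.08 with DCAA, and 1 was lower with DCAA (12.5%). The 10 mitochondrial quality control genes had medians of 0.10 and -0.13. With DCAA 2 of these 10 were higher (20%), Hscb at 0.74 and Grpel2 at 0.57, and 0 were lower. The 7 tested genes of the ATF6 and CREB3L list had medians of 0.14 and 0.01. All other counts of these 3 lists against control were 0 with either compound.

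Controls 1 and 3 differed from each other mostly in 1 direction for these genes. The share of all probe sets in that direction was not computed, so the count is not read as a trait of the 37 genes. Control 1 read above control 3 for 31 of the 37 genes, with a median ratio of the higher to the lower control of 1.16 and 5 genes over 1.5-fold. The highest DCAC array was over 1.5-fold above the lowest for 15 genes, and the same held for 9 genes among DCAA arrays. Of the 26 genes with several tested probe sets, all of them pointed the same way for 13 genes with DCAC and for 12 with DCAA. On control 2, 20 of the 37 genes (54.05%) read below all 8 other arrays and 3 (8.11%) above all of them, where 23.8% of all probe sets read below and 24.8% above.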

How the data were processed

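RNA of 9 mice, labelled as liver, was hybridised to 1 Affymetrix array each, with the groups taken from the labels. The markers on control 2 go against that label. The authors deposited linear signal intensities, 1 per probe set, from GCOS (no version given), per the submitters' processing notes. In the deposited intensities every array has a mean of 500.0 once its top and bottom 2% of probe sets are removed. The 36 pairs of arrays held no identical columns.

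A floor at the 25th percentile of each array was applied before log2. The filter kept 24531 of 45101 probe sets, those exceeding the array's median signal on 3 or more of 8 arrays, without the 64 control probe sets. Tests used limma 3.58.1 (lmFit and eBayes with trend; R 4.3.3), in 1 model of 3 groups on 8 arrays, or of 2 groups for all treated mice. Genes were called at an adjusted p (Benjamini-Hochberg, two-sided) under 0.05, with the adjustment over the whole filtered table. The fit was tested on simulated data.

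The 39 genes, the role groups, the other lists and the choice to leave out control 2 were made with earlier results of these data known. All 39 genes are named, with values on every array for up to 5 of each role group by the largest difference, and up to 3 genes of each other list by p. Gene symbols come from the platform annotation, where 34945 probe sets carry 1 symbol, 932 several and 9160 none, and promoters from RefSeq (GRCm38.p6). Nothing states that mice of the same number share a batch. Deviations of same-numbered arrays correlated at -0.0408 to 0.0275 over 7 pairs and those of other numbers at -0.0664 to 0.0736 over 14. No sign of pairing by number was seen. These pairs share arrays and are not independent, so they cannot exclude it. Alternatives were other scalings, floors, filters, probe set rules and variance models, all 9 arrays, a block for the 3′/5′ class or the replicate number, and each array left out in turn.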

Additional observations from a re-analysis of the deposited data

Results flagged for a closer look

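Inducible Hsp70 was high on control 2, the array left out of the comparisons. Hspa1b read 4003 there, more than 2 times the higher of the other controls, against 1165 on control 1 and 614 on control 3. Hspa1a read 656.6 on control 2, against 59.2 on control 1 and 10.4 on control 3. On the same array 20 of the 37 genes, among them 10 of 13 ER chaperones and foldases, read below all 8 other arrays, where 23.8% of all probe sets did so, and 3 read above all of them, where 24.8% of all probe sets did so. Hepatocyte markers summed to 14993 on control 2, against 243692 or more on each other array, and kidney tubule markers to 127483, against at most 1800.3. The part of these markers in the signals of control 2 was not tested.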

How the results depend on the processing

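Of 3367 differences of single genes under the alternatives, 3158 kept their direction and their side of the threshold, 206 turned sign without passing before or after, and 3 passed, all for DCAA against control. Counts below are probe sets called at a limma adjusted p under 0.05, given for DCAC against control, DCAA against control, DCAC against DCAA and all treated mice against control, which were 8, 20, 1 and 18. All 9 arrays gave 0 in each, and eBayes without trend gave 0, 0, 0 and 2. The 3′/5′ class as a block gave 2, 0, 3 and 5, and array weights 30, 141, 1 and 62. No filter gave 1, 4, 0 and 18, a common median 12, 9, 0 and 13, and robust eBayes 1, 14, 1 and 17. Only the groups compared gave 8, 17 and 2 for the first 3 comparisons. With the replicate number as a block the counts were 7, 17, 1 and 7, and 0 of the 37 genes were called. Leaving out 1 array gave 2 to 14, 3 to 87, 0 to 2 and 4 to 27. The count of the 37 genes called, 0 in each comparison, became 1 for DCAA against control with array weights and ranged from 0 to 1 when 1 array was left out. The common median moved the median of all probe sets from -0.01 to -0.12 for DCAA against control and from -0.01 to 0.17 for DCAC against DCAA. Median differences of the 37 genes then were -0.18 and 0.16. With 9 arrays their medians were 0.10 for DCAC and 0.18 for DCAA against control, so that the sign turned. The array added there is control 2, which read below all 8 others for 20 of the 37 genes and above all for 3. The cause of these readings, and of the shift under the common median, was not tested. Offsets, quantile normalization and probe set rules kept every count within 1.5 times. Signal over background limits Hspa1a, which lay under the array median.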
